A study of Mus musculus with 12 samples.

Results

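The genes described here are 38 genes of glycolysis and of the transcriptional response to low oxygen, 19 of each. They were chosen by name, with earlier results of these data known, from 35865 genes to which the deposited transcripts were assigned. All 38 had at least 10 estimated counts in at least 3 of the 12 libraries, as did 13906 genes in all. The libraries hold polyadenylated RNA of RAW264.7 cells, a single mouse macrophage line, cultured in medium with serum cleared of vesicles and treated for 48 h with extracellular vesicles (EVs) at 3 µg protein/ml. The EVs came from MS-1 cells, a mouse endothelial line, and had been electroporated with a synthetic miRNA mimic. Every group therefore received electroporated MS-1 vesicles, and the groups differed in the mimic. ctrl-EVs carried a control mimic, which the methods give as the worm miRNA cel-miR-67. The 3 miR-EV groups, miR-142-5p-EVs, then miR-183-5p-EVs, then miR-222-3p-EVs, carried the mouse miRNA in their name. Each group has 3 libraries, which the sample titles number 1, 2 and 3. What a number stands for is not stated, and no label says that the libraries came from separate cultures, so p-values measure the spread between these libraries, which may be technical.

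Glycolysis turns glucose into pyruvate in the cytosol, and lactate dehydrogenase and the lactate exporter let the pathway run without oxygen. In normal oxygen, prolyl hydroxylases mark the transcription factor HIF-1α for degradation. When oxygen falls, HIF-1α is spared, joins ARNT and binds a short core motif near genes for glucose uptake, glycolysis, mitophagy and blood vessel growth. Macrophages are known for using this program both in poorly perfused tissue and when inflammatory signals activate them.

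The mature forms of the 3 miRNAs that the groups are named after are shown because the seed, bases 2 to 8 from the 5′ end and in capitals here, sets which transcripts a miRNA can pair with. The seeds differ from each other. Sequences are the mature mouse miRNAs of RefSeq (build GRCm38.p6), not those of the synthetic mimics. The study lists the miR-222-3p mimic as shorter at its 3′ end, outside the seed.
mmu-miR-142a-5p, chr11:87756867-87756887, plus strand: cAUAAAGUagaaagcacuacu
mmu-miR-183-5p, chr6:30169711-30169732, minus strand: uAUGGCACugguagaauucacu
mmu-miR-222-3p, chrX:19146901-19146923, minus strand: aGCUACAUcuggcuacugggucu

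Between 16294611 and 22974853 estimated counts were deposited for a library. Of 8 macrophage markers 7 passed the count filter, with Cd68 and Lyz2 the highest per length, while the receptor gene Mertk had at most 8 counts in any library. Of 9 endothelial markers, which would mark the cells that shed the EVs, 4 passed. These were Egfl7, Pecam1, Tek and Cdh5, with at most 293, 153, 30 and 25 counts in a library. Tie1, Erg, Esam, Kdr and Emcn had at most 9, 9, 7, 3 and 1 counts. The macrophage markers summed to 610 to 824 TPM and the endothelial markers to 13.4 to 30.3 TPM in single libraries, most of it from Egfl7 and, at a lower level, Pecam1. TPM is Salmon's transcript abundance, scaled for length and library size.

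By level per length, glycolytic enzymes led the members. The mean over 12 libraries was 3710 TPM for Pkm (pyruvate kinase), 2290 TPM for Gapdh, 1869 TPM for Aldoa (aldolase A), 1557 TPM for Ldha (lactate dehydrogenase A) and 1479 TPM for Pgk1 (phosphoglycerate kinase). At the other end stood Pfkfb4, an enzyme that sets fructose-2,6-bisphosphate, at 14.1 TPM, the prolyl hydroxylase gene Egln3 at 4.32 TPM and P4ha2, a collagen prolyl hydroxylase subunit, at 1.67 TPM. Together the 19 glycolysis genes made up 0.920% to 1.93% of all TPM in a library and the 19 hypoxia genes 0.122% to 0.340%. Other listed genes that share sequence with Gapdh and Eno1 held 354% and 159% of the counts of these 2 genes. Such copies are left out of the levels above, so the order and the shares hold for the named genes alone.

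The study set each miR-EV group against ctrl-EVs. Across the 12 libraries 0 of the 38 genes were called in any of the 3 miR-EV groups (DESeq2, Benjamini-Hochberg adjusted p under 0.05), where in the order above 0.00719%, 0.0% and 0.0% of all 13906 tested genes were called. With all 9 miR-EV libraries together against the 3 ctrl-EVs libraries 0 members were called, against 0.0% of tested genes. edgeR's quasi-likelihood test called 0 members in each of these comparisons too. An unadjusted p under 0.05 was found for 0, 1, 0 and 0 members in the same order of comparisons, beside 0.525%, 0.992%, 0.726% and 1.03% of all tested genes. The 1 was Pfkfb4 in miR-183-5p-EVs, named after its values were seen, at 0.36 ± 0.17 on the log2 scale (SE). The fitted log2 fold changes were above 0 for 38 members in miR-142-5p-EVs, 32 in miR-183-5p-EVs and 34 in miR-222-3p-EVs, with medians of 0.20, 0.14 and 0.15, while the medians over all tested genes were 0.01 in each. These 3 comparisons share the same ctrl-EVs libraries.

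Libraries that carried the same number in their titles deviated from their group means together, so the comparisons were also fitted with the number as a replicate block. Under the block 0, 0 and 0 members were called in the 3 miR-EV groups in the same order, beside 0.0575%, 0.41% and 0.0647% of all tested genes. In the 9 miR-EV libraries together 1 of 38 members was called, beside 0.626% of tested genes. An unadjusted p under 0.05 was reached by 4, 3, 4 and 5 members, which is 10.5%, 7.89%, 10.5% and 13.2% of the 38, beside 5.86%, 10.1%, 6.53% and 10.6% of all tested genes. These members were always higher in miR-EVs, and Kdm3a and Pfkfb3 were among them in each of the 4 comparisons. With the block in edgeR 0 members were called in each.

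The member called under the block was Kdm3a (ENSMUSG00000053470, chr6:71588972-71632990, minus strand), which encodes a histone H3 lysine 9 demethylase that needs oxygen and is itself induced in hypoxia. Normalized counts of Kdm3a in libraries 1, 2 and 3 were 1816, 3977 and 1426 in ctrl-EVs, 2355, 4579.8 and 1672 in miR-142-5p-EVs, 2088, 5639.6 and 1745 in miR-183-5p-EVs and 2415, 4969 and 1772 in miR-222-3p-EVs. Within each number the ctrl-EVs library was the lowest of 4, although the groups overlapped across numbers. The blocked difference was 0.32 ± 0.08 on the log2 scale (SE, adjusted p = 0.0248, DESeq2). Kdm3a was higher in 9 of 9 paired miR-EV libraries, but these pairs share 3 ctrl-EVs libraries and are not independent. All 3 miR-EV libraries lay above ctrl-EVs for 32.5%, 29.2% and 33.0% of tested genes in numbers 1, 2 and 3. The share that did so in every number was not counted. Without the block the difference of Kdm3a was 0.33 ± 0.47 and was not called. With 1 library left out at a time, the call held without ctrl-EVs 3, miR-142-5p-EVs 2, miR-183-5p-EVs 1 or miR-183-5p-EVs 2 and was lost without any of the others. In the single miR-EV groups the blocked values of Kdm3a were 0.27 ± 0.10 (miR-142-5p-EVs), 0.34 ± 0.10 (miR-183-5p-EVs) and 0.35 ± 0.10 (miR-222-3p-EVs), with adjusted p = 0.618, 0.0855 and 0.131 from DESeq2.

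**Figure D1:**
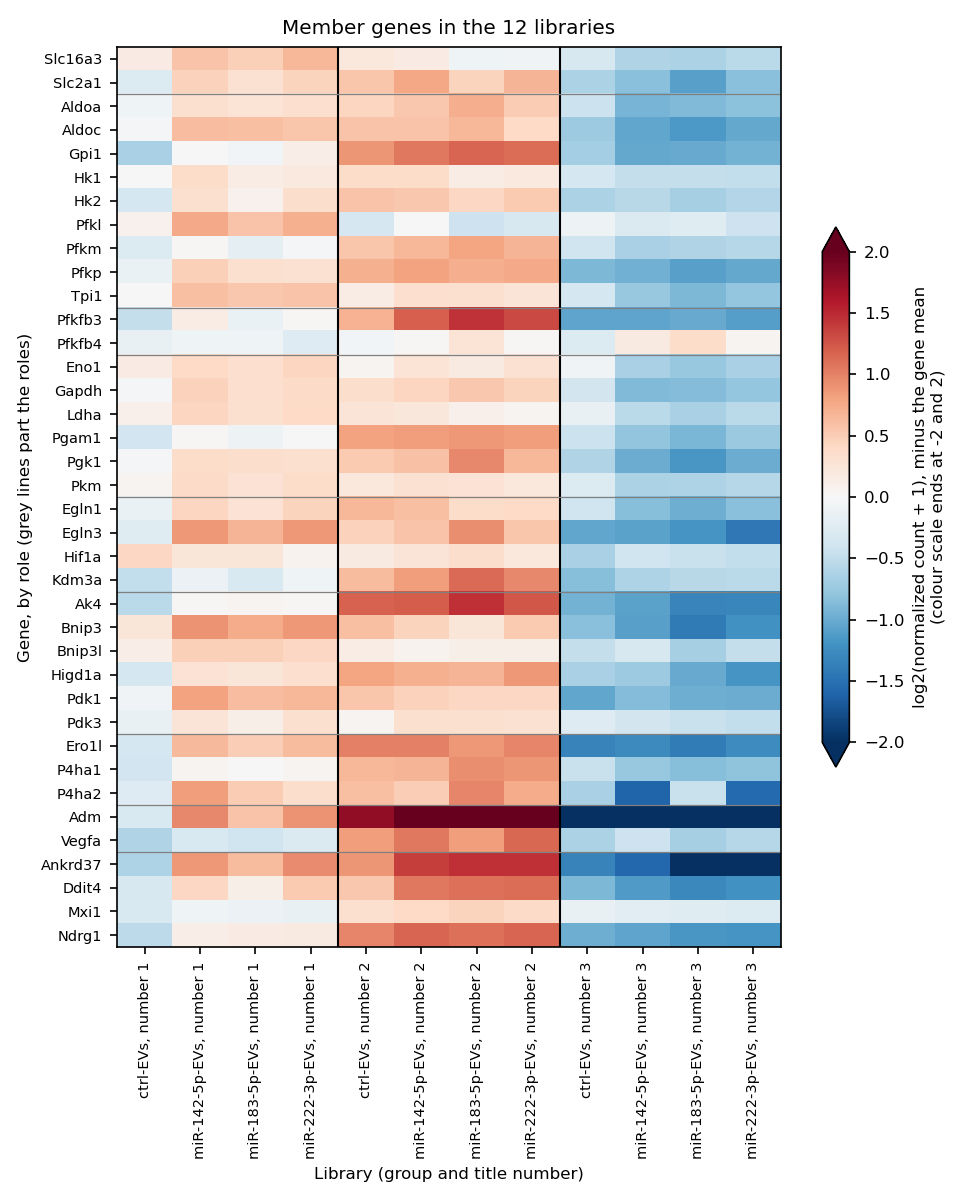
Heat map of the 38 genes (vertical axis, ordered by role) in the 12 libraries (horizontal axis, 4 groups within each title number); colour is log2(normalized count + 1) centred on each gene's average. The 4 libraries of number 3 are low for 35 of 38 genes against those of number 1, and in number 1 the ctrl-EVs library is paler than its 3 neighbours.

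The title numbers separated the members far more than the EV groups did. In libraries of number 2, 34 of the 38 genes were higher than in numbers 1 and 3 (DESeq2 with the group as a term, adjusted p under 0.05), where 32.0% of all tested genes were higher, and 1 member was lower, where 32.1% of tested genes were. In number 1, 35 members were higher than in number 3, against 12.9% of tested genes, and 0 were lower, against 10.5%. The median log2 fold change of the members was 0.86 in the first contrast and 0.98 in the second, and that of all tested genes 0.01 and -0.01. For 36 members every library of number 2 lay above every library of number 3, as for 27.8% of tested genes, and for 35 every library of number 1 lay above every library of number 3, as for 13.2%. Less RNA per cell and fewer cells with the program cannot be told apart in such bulk samples. On a log2(TPM + 1) scale the median of all tested genes was itself -0.17 in number 2 against numbers 1 and 3, and the members' median was 0.57. The called members kept their direction on that scale in both contrasts, and the sign turned only for members that were not called: Pfkfb4, Slc16a3 and Bnip3l in the first and Mxi1 in the second.

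Number 2 was then set against number 1 alone, a comparison added after the values were seen. In it 20 members were called higher and 3 lower, where 28.0% and 29.9% of tested genes were. The 3 lower ones were Pfkl, Slc16a3 and Bnip3l. For 16 members the numbers stood in the order 2, 1, 3 from high to low, with no overlap in normalized counts. Among them were Hk2, Gpi1, Pfkfb3, Ndrg1, Kdm3a and Adm. In TPM, Hk2, Pfkp, Aldoa, Ero1l and Ddit4 overlapped between numbers 2 and 1, and Kdm3a between numbers 1 and 3. The members' median difference between numbers 2 and 1 was 0.36 on log2(normalized count + 1) and 0.18 on log2(TPM + 1), and 6 members changed sign. The median of all tested genes was 0.01 and -0.13 on these scales. Every library of number 2 lay above every library of number 1 for 19 members and 26.2% of tested genes. Number 1 lay wholly above number 3 for 13.2% of tested genes, so at most 13.2% can hold that order. The exact share of tested genes that hold it was not counted.

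Several library features went with the numbers, and their part in these differences was not tested. Number 2 libraries held 16294611 to 18927524 estimated counts, against 19568719 to 22974853 in number 1 and 18990222 to 22363164 in number 3. Mitochondrial genes held 4.85% to 5.38% of counts in number 2, 4.44% to 4.59% in number 1 and 3.45% to 3.89% in number 3. The macrophage markers summed to 610 to 650 TPM in number 2, 745 to 824 TPM in number 1 and 757 to 799 TPM in number 3. Single markers did not move alike. Fcgr1 held 6.02 to 15.1 TPM in number 2 and 54.1 to 76.0 TPM in the others, and Csf1r and Spi1 were also lower in number 2. Cd68 was not lower, at 349 to 416 TPM in number 2 and 321 to 374 TPM in the others, and Lyz2, Itgam and Adgre1 overlapped. The endothelial markers summed to 13.4 to 16.4 TPM in number 2 and to 21.4 to 30.3 TPM in the others. Most of that difference lay in Egfl7, at 10.1 to 12.3 TPM in number 2 and 17.4 to 26.2 TPM in the others, while Pecam1 overlapped, at 2.83 to 4.14 TPM and 2.36 to 4.07 TPM.

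**Figure D2:**
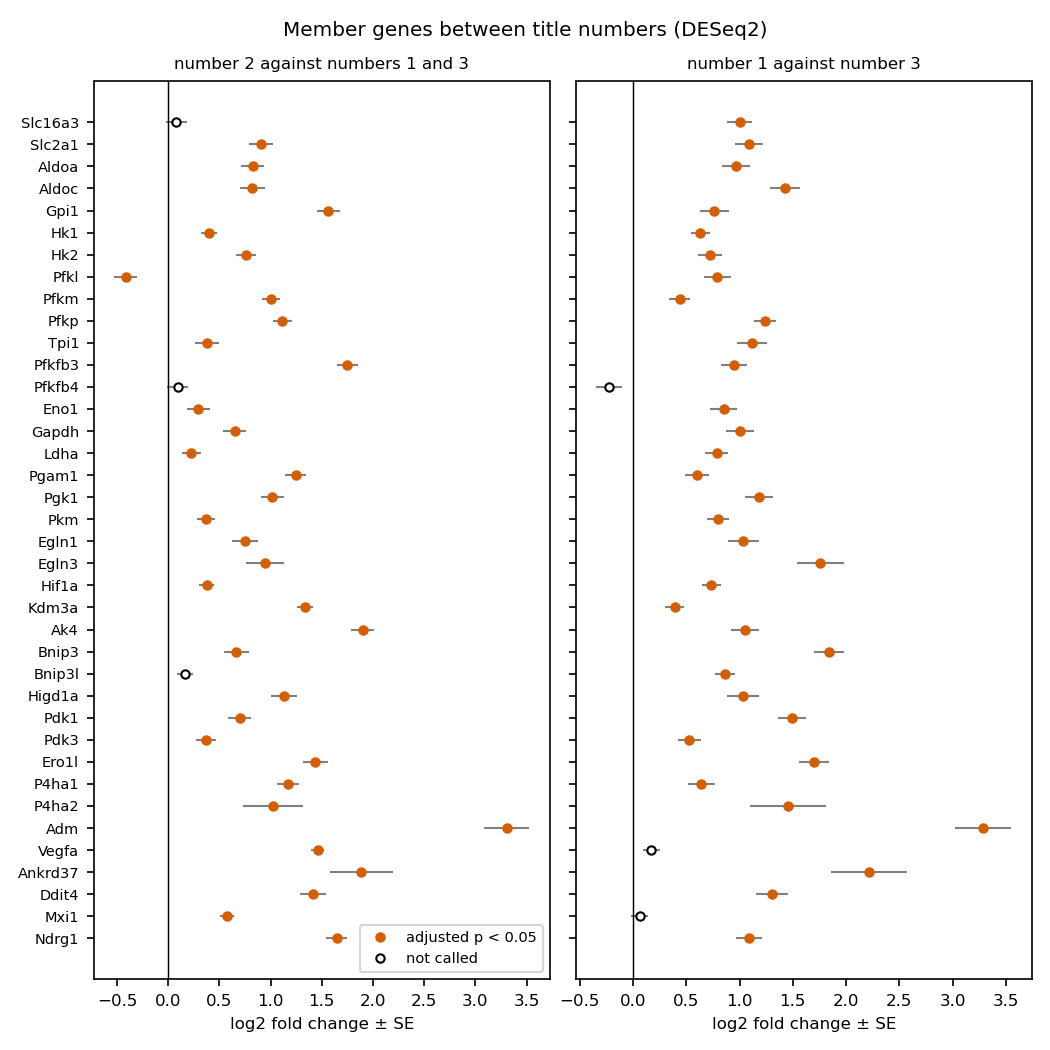
Log2 fold change ± SE of each gene (vertical axis) in number 2 against numbers 1 and 3 (left) and in number 1 against number 3 (right), from DESeq2; filled points have an adjusted p under 0.05. Adm lies farthest right in both panels, at 3.30 and 3.28, and Pfkl is the 1 called gene left of 0, at -0.41 in the left panel.

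Of the 2 transporters, Slc2a1 (ENSMUSG00000028645, chr4:119108711-119137983, plus strand) encodes GLUT1, the glucose importer. Its normalized counts in libraries 1, 2 and 3 were 3136, 5598 and 2448 in ctrl-EVs, 5214, 6461 and 2122 in miR-142-5p-EVs, 4686, 5147 and 1782 in miR-183-5p-EVs and 5169, 6080.2 and 2131 in miR-222-3p-EVs. Number 3 libraries were the lowest in every group, and the 4 values of number 3 lay below the 8 others. The difference was 0.90 ± 0.12 in number 2 against numbers 1 and 3 and 1.09 ± 0.13 in number 1 against number 3 (log2, SE; adjusted p = 3.8e-14 and 4.5e-14, DESeq2). Slc16a3 (ENSMUSG00000025161, chr11:120948480-120960868, plus strand) encodes MCT4, the exporter of lactate. It had normalized counts, in libraries 1, 2 and 3, of 2916, 3009 and 2085 in ctrl-EVs, 3858, 2919 and 1710.4 in miR-142-5p-EVs, 3645, 2465 and 1689.6 in miR-183-5p-EVs and 4128, 2493 and 1789 in miR-222-3p-EVs. Unlike Slc2a1 it was highest in number 1 for each miR-EV group, while in ctrl-EVs libraries 1 and 2 were nearly equal. Number 1 exceeded number 3 by 1.002 ± 0.12 (adjusted p = 6.3e-15, DESeq2), number 2 was lower than number 1 with a log2 difference of -0.42 ± 0.12 (adjusted p = 0.00106), and number 2 against both gave 0.08 ± 0.10, which was not called (without the transcript length offset it was 0.23 and was called).

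Among the 9 enzymes of upper glycolysis, 8 were higher and 1 lower in number 2 than in numbers 1 and 3, and 9 were higher in number 1 than in number 3. Hk2 (ENSMUSG00000000628, chr6:82725025-82774454, minus strand), the inducible hexokinase that traps glucose in the cell, had normalized counts, in libraries 1, 2 and 3, of 2221, 4185 and 1822 in ctrl-EVs, 3513, 4090.4 and 1925 in miR-142-5p-EVs, 3005, 3755 and 1782 in miR-183-5p-EVs and 3601, 4045 and 1889.6 in miR-222-3p-EVs. The 3 numbers did not overlap for Hk2 in normalized counts, while in TPM numbers 2 and 1 overlapped. Its differences were 0.76 ± 0.10 and 0.72 ± 0.11 in the 2 contrasts (adjusted p = 8e-14 and 9.4e-09, DESeq2). The widely expressed hexokinase gene Hk1 moved less, by 0.40 ± 0.08 and 0.63 ± 0.09. Gpi1, which turns glucose 6-phosphate into fructose 6-phosphate, averaged 42760.5 ± 3411 in number 2, 18959 ± 4046 in number 1 and 11002 ± 1284 in number 3 (SD, n = 4).

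The 3 genes of phosphofructokinase, the committed step of the pathway, did not move alike. Pfkl (ENSMUSG00000020277, chr10:77986947-78010083, minus strand), the liver-type subunit, had normalized counts, in libraries 1, 2 and 3, of 3288, 2433 and 2865 in ctrl-EVs, 5198, 3094 and 2539 in miR-142-5p-EVs, 4562, 2309 and 2613 in miR-183-5p-EVs and 5064, 2467 and 2326 in miR-222-3p-EVs. The libraries of number 1 stood above the rest, and those of numbers 2 and 3 overlapped. Pfkl was the member lower in number 2, with a log2 difference of -0.41 ± 0.11 from numbers 1 and 3 (adjusted p = 0.00043, DESeq2), while it was higher in number 1 than in number 3 by 0.79 ± 0.13. Pfkp, the platelet-type subunit, went up in number 2 by 1.12 ± 0.09, and Pfkm, the muscle-type subunit, by 1.01 ± 0.09. Measured per length, Pfkp was the main form, with a mean of 302 TPM against 72.2 TPM for Pfkl and 50.4 TPM for Pfkm. Pfkm and Pfkp each overlap a gene on the opposite strand, Senp1 with 74.3% of the counts of Pfkm and Pitrm1 with 18.8% of those of Pfkp. Whether the reads were assigned by strand is not stated, and Pfkl has no such overlap.

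Pfkfb3 (ENSMUSG00000026773, chr2:11471433-11554077, minus strand) makes fructose-2,6-bisphosphate, the activator of phosphofructokinase. Its normalized counts in libraries 1, 2 and 3 were 2275, 5167 and 1529 in ctrl-EVs, 3536, 7308 and 1523 in miR-142-5p-EVs, 2908, 8663 and 1573 in miR-183-5p-EVs and 3246, 7904 and 1486 in miR-222-3p-EVs. Number 2 libraries were the highest and number 3 libraries the lowest, with no overlap, and within number 2 the ctrl-EVs library lay below the 3 others. The differences were 1.75 ± 0.10 and 0.95 ± 0.12 (adjusted p = 1.1e-63 and 1.3e-13, DESeq2). Its relative Pfkfb4 was called in neither contrast, at 0.09 ± 0.10 and -0.23 ± 0.12, and ranged from 347 to 542 over the 12 libraries.

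The 6 genes of lower glycolysis and lactate were all higher in both contrasts, with median log2 fold changes of 0.51 and 0.82. Ldha (ENSMUSG00000063229, chr7:46841475-46855627, plus strand), which reduces pyruvate to lactate, had normalized counts, in libraries 1, 2 and 3, of 33394, 36897 and 27911 in ctrl-EVs, 41635, 36177 and 21248 in miR-142-5p-EVs, 38569, 33072 and 19746 in miR-183-5p-EVs and 41016, 32056 and 21366 in miR-222-3p-EVs. Numbers 1 and 2 overlapped and number 3 lay below both. Ldha was higher in number 1 than in number 3 by 0.79 ± 0.11 (adjusted p = 3e-11, DESeq2), and in number 2 against both by only 0.23 ± 0.09 (adjusted p = 0.0273), a call lost with edgeR and in 6 of the fits that left out 1 library, where it was 0.20 to 0.22. Those fits left out ctrl-EVs 2, miR-142-5p-EVs 2 or 3, miR-183-5p-EVs 2 or 3, or miR-222-3p-EVs 3. Pgam1 (phosphoglycerate mutase), by contrast, averaged 26968 ± 452 in number 2, 14052 ± 1752 in number 1 and 9256 ± 1399 in number 3 (SD, n = 4), and its 3 numbers did not overlap. Gapdh, Eno1 (enolase) and Pkm differed by 0.15, -0.13 and -0.03 between numbers 2 and 1, none of them called.

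Gapdh, Eno1 and Pgk1 share most of their sequence with other listed genes, so that their counts depend on how Salmon divided the reads. Of the 31-base words of the main Gapdh transcript 84.1% occur in another listed gene, and for Eno1 and Pgk1 the share was 77.2% and 68.3%. With the copies added, the CPM of Gapdh (counts scaled to the library total) was 5175 in number 2, 5615 in number 1 and 2872 in number 3, against 1236, 1178 and 626 for Gapdh alone. The same sum for Eno1 was 1855, 2695 and 1688, and for Pgk1 2922, 2252 and 1038. The difference between numbers 1 and 3 was thus of like size with the copies, at 0.97 for Gapdh, 0.67 for Eno1 and 1.12 for Pgk1 on the log2 scale, while number 2 against the others was -0.04 for Eno1 alone and -0.20 with its copies. The call of Eno1 as higher in number 2, at 0.29 ± 0.11 by DESeq2, thus did not hold its direction on the CPM scale.

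**Figure D3:**
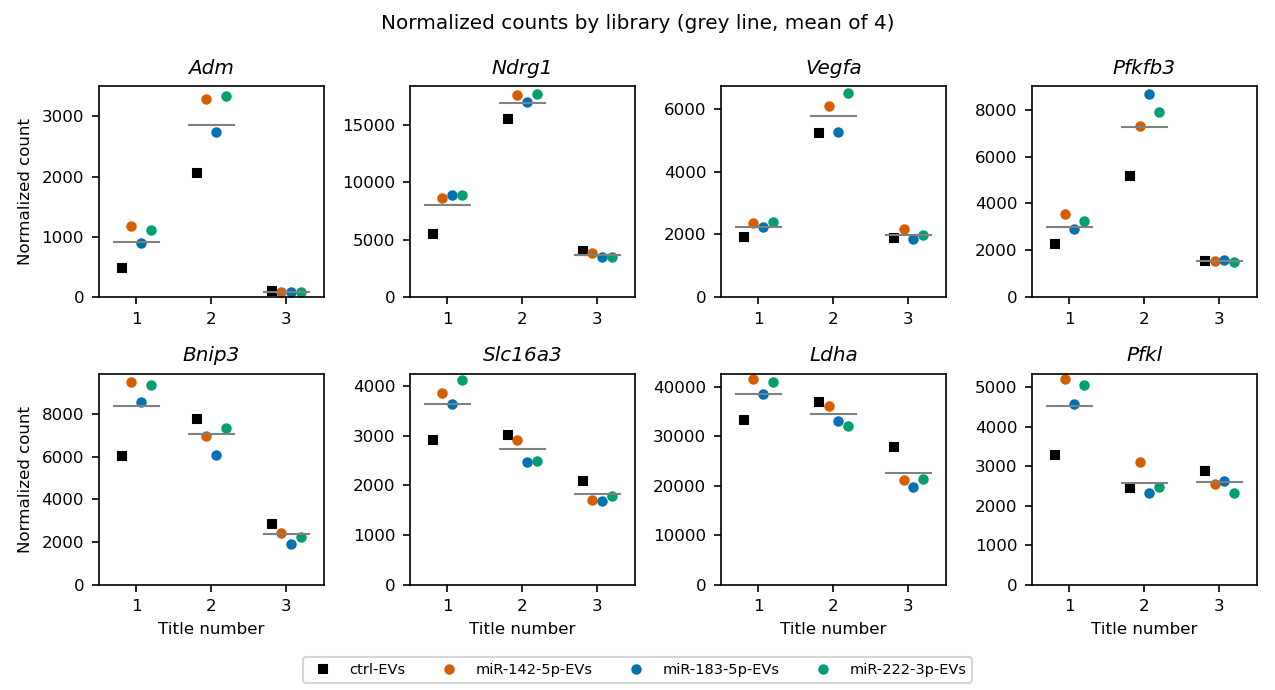
Normalized counts of 8 genes (vertical axis) by title number (horizontal axis) and EV group (colour), with the mean of 4 libraries as a grey line. Adm, Ndrg1, Vegfa and Pfkfb3 are highest in number 2, Bnip3, Slc16a3 and Ldha are low in number 3, and Pfkl is high in number 1.

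Oxygen sensing and HIF itself account for 4 members, and all 4 were higher in number 2 than in numbers 1 and 3 and higher in number 1 than in number 3. Hif1a (ENSMUSG00000021109, chr12:73901375-73947530, plus strand), the oxygen-regulated subunit whose protein rather than mRNA is the known point of control, had normalized counts, in libraries 1, 2 and 3, of 13212, 11301 and 6346 in ctrl-EVs, 11784, 11919.5 and 7543 in miR-142-5p-EVs, 11724, 12644 and 7328 in miR-183-5p-EVs and 10452, 11522 and 7091 in miR-222-3p-EVs. Numbers 1 and 2 overlapped, and number 3 lay below both. Its differences were among the smaller ones, at 0.37 ± 0.08 and 0.74 ± 0.09 (adjusted p = 2e-06 and 2.9e-15, DESeq2). Egln3 (ENSMUSG00000035105, chr12:54178981-54203860, minus strand) encodes the prolyl hydroxylase PHD3, a feedback brake that HIF induces. It had normalized counts, in libraries 1, 2 and 3, of 116, 189 and 66.5 in ctrl-EVs, 251, 205 and 65.1 in miR-142-5p-EVs, 221, 264 and 60.4 in miR-183-5p-EVs and 250.3, 203 and 50.5 in miR-222-3p-EVs. The 4 libraries of number 3 held 50.5 to 66.5 and the others 116 to 264. Egln3 was higher in number 1 than in number 3 by 1.76 ± 0.22 (adjusted p = 1.8e-13, DESeq2), while number 2 against number 1 gave 0.06 ± 0.21. The related Egln1 (PHD2) rose by 1.03 ± 0.15 in number 1 against number 3. Kdm3a peaked in number 2, by 1.34 ± 0.07 (adjusted p = 1.7e-69, DESeq2).

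The 6 members with mitochondrial roles were all higher in number 1 than in number 3, and 5 of them in number 2 than in the others. Pdk1 (ENSMUSG00000006494, chr2:71873224-71903858, plus strand), a kinase that shuts pyruvate dehydrogenase and so keeps pyruvate from the citric acid cycle, had normalized counts, in libraries 1, 2 and 3, of 3659, 5670.3 and 1871 in ctrl-EVs, 6712, 5296 and 2114 in miR-142-5p-EVs, 5874, 5122 and 1950.3 in miR-183-5p-EVs and 6098, 5138 and 1921 in miR-222-3p-EVs. Bnip3 (ENSMUSG00000078566, chr7:138890836-138909519, minus strand), a receptor for mitophagy, had 6047, 7767 and 2857 in ctrl-EVs, 9509, 6951 and 2409.5 in miR-142-5p-EVs, 8553, 6089 and 1912 in miR-183-5p-EVs and 9361, 7353 and 2223 in miR-222-3p-EVs. For both genes number 3 was lowest in each group with no overlap, and among the number 1 libraries the ctrl-EVs one was the lowest. Number 1 exceeded number 3 by 1.49 ± 0.13 for Pdk1 and 1.84 ± 0.14 for Bnip3 (adjusted p = 6.7e-28 and 1.3e-36, DESeq2). Between numbers 2 and 1 they differed by -0.05 ± 0.13 and -0.25 ± 0.14, neither of them called. Bnip3l, the close relative of Bnip3, was lower in number 2 than in number 1, with a log2 difference of -0.27 ± 0.09 (adjusted p = 0.0101, DESeq2).

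Ak4 (ENSMUSG00000028527, chr4:101419277-101466995, plus strand), an adenylate kinase of the mitochondrial matrix, was highest in number 2. Its normalized counts in libraries 1, 2 and 3 were 1437, 4722 and 1086 in ctrl-EVs, 2120.3, 4868 and 999 in miR-142-5p-EVs, 2169, 5758 and 837 in miR-183-5p-EVs and 2135, 4944 and 846 in miR-222-3p-EVs. The numbers did not overlap, and number 2 stood at the top. Ak4 was higher in number 2 by 1.90 ± 0.11 (adjusted p = 5.1e-60, DESeq2), the second largest difference of all members after Adm. Higd1a, which protects respiration in low oxygen, was also highest in number 2, by 1.13 ± 0.13. Pdk3 was higher in number 2 than in numbers 1 and 3 by 0.37 ± 0.09, but its libraries of numbers 1 and 2 overlapped.

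The 3 members of the endoplasmic reticulum were higher in both contrasts. Ero1l (ENSMUSG00000021831, chr14:45283087-45318771, minus strand), the oxidase that drives disulfide bond formation, had normalized counts, in libraries 1, 2 and 3, of 12445, 32019 and 6327 in ctrl-EVs, 24866, 31974 and 6557 in miR-142-5p-EVs, 22406, 29029.6 and 6015 in miR-183-5p-EVs and 24666, 31238 and 6618 in miR-222-3p-EVs. In number 1 the ctrl-EVs library lay between the number 3 libraries and the miR-EV libraries of number 1. The differences were 1.44 ± 0.12 and 1.70 ± 0.14 (adjusted p = 2.6e-30 and 3.7e-30, DESeq2). P4ha1 and P4ha2, subunits of collagen prolyl 4-hydroxylase, were higher in number 2 by 1.17 ± 0.11 and 1.02 ± 0.29, and P4ha2 rested on 11.4 to 72.5 normalized counts.

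The 2 secreted factors differed from each other. Adm (ENSMUSG00000030790, chr7:110627661-110629820, plus strand), the precursor of the vasodilator adrenomedullin, had normalized counts, in libraries 1, 2 and 3, of 489.7, 2060.5 and 107 in ctrl-EVs, 1172, 3293 and 79.4 in miR-142-5p-EVs, 892, 2741 and 84.6 in miR-183-5p-EVs and 1121, 3343 and 86.6 in miR-222-3p-EVs. Number 3 held 79.4 to 107 and number 2 held 2060.5 to 3343, so the highest library was 42.1 times the lowest, the widest range of any member. The differences of Adm were 3.30 ± 0.22 and 3.28 ± 0.26 (adjusted p = 1.4e-47 and 2.4e-32, DESeq2). Vegfa (ENSMUSG00000023951, chr17:46016993-46032369, minus strand), the main growth factor for blood vessels, had 1919.6, 5231 and 1893 in ctrl-EVs, 2375, 6094 and 2185 in miR-142-5p-EVs, 2220.2, 5252 and 1838 in miR-183-5p-EVs and 2389, 6498 and 1976 in miR-222-3p-EVs. Its number 2 libraries stood alone, and those of numbers 1 and 3 overlapped. Vegfa was higher in number 2 by 1.46 ± 0.07 (adjusted p = 2e-104, DESeq2) and did not pass between numbers 1 and 3 at 0.17 ± 0.08 (adjusted p = 0.0914), though it passed without ctrl-EVs 3, at 0.21.

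The last 4 members have other roles in the response. Ankrd37 (ENSMUSG00000050914, chr8:45996902-46005707, minus strand), an ankyrin-repeat gene known as a direct HIF-1 target, had normalized counts, in libraries 1, 2 and 3, of 211, 599 and 129 in ctrl-EVs, 595, 849 and 109 in miR-142-5p-EVs, 503, 895 and 81 in miR-183-5p-EVs and 628, 898 and 75.8 in miR-222-3p-EVs. Number 3 libraries lay far below the rest, and within number 1 and within number 2 the ctrl-EVs library was the lowest. Its differences were 1.89 ± 0.31 and 2.21 ± 0.36 (adjusted p = 3.6e-09 and 2.6e-08, DESeq2). Ankrd37 overlaps genes on the opposite strand, the largest with 296% of its counts, and whether the reads were assigned by strand is not stated.

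Ndrg1 (ENSMUSG00000005125, chr15:66929318-66969640, minus strand), a stress-induced gene used as a hypoxia marker, had normalized counts, in libraries 1, 2 and 3, of 5489, 15505 and 3982 in ctrl-EVs, 8625, 17603 and 3801 in miR-142-5p-EVs, 8837, 16927 and 3511 in miR-183-5p-EVs and 8909, 17653 and 3478 in miR-222-3p-EVs. Ddit4 (ENSMUSG00000020108, chr10:59949669-59951834, minus strand), which encodes the mTORC1 inhibitor REDD1, had 1712, 3105 and 1144 in ctrl-EVs, 2843, 4433 and 971 in miR-142-5p-EVs, 2328, 4579 and 878 in miR-183-5p-EVs and 3088, 4647 and 925 in miR-222-3p-EVs. The order 2, 1, 3 held for both with no overlap between numbers, although in TPM numbers 2 and 1 overlapped for Ddit4. Ndrg1 differed by 1.64 ± 0.10 and 1.09 ± 0.12, and Ddit4 by 1.41 ± 0.13 and 1.31 ± 0.15 (adjusted p = 3.1e-54, 2.9e-17, 1.3e-26 and 4e-16, DESeq2). Mxi1, an antagonist of MYC, was higher in number 2 by 0.57 ± 0.07 and was not called between numbers 1 and 3, at 0.06 ± 0.08.

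To summarise a library, each member's log2(normalized count + 1) was centred on that gene's average, and the centred values were averaged into a score. For the glycolysis genes it was 0.39 to 0.51 in number 2, -0.12 to 0.35 in number 1 and -0.76 to -0.46 in number 3. For the hypoxia genes the score was 0.68 to 0.84, -0.26 to 0.41 and -1.09 to -0.84 in the same order. On this score both sets were ordered alike, with no overlap between number 3 and the others. By summed TPM, where abundant genes weigh most, the glycolysis genes of numbers 2 and 1 overlapped, at 17450 to 18224 and 14151 to 19338 TPM. In number 3 they held 9199 to 11003 TPM. The hypoxia genes held 3126 to 3399, 1964 to 3047 and 1218 to 1371 TPM in numbers 2, 1 and 3. The score over all tested genes stayed between -0.04 and 0.02. Number 2 exceeded the mean of numbers 1 and 3 by 0.70 for glycolysis and 1.18 for hypoxia genes, and number 1 exceeded number 3 by 0.85 and 1.18. Between EV groups the score of all members differed by 0.17 (miR-142-5p-EVs), 0.11 (miR-183-5p-EVs) and 0.13 (miR-222-3p-EVs) from ctrl-EVs. The pooled SD within groups was 0.76, which includes the differences between title numbers. Paired by number, the mean difference of the miR-EV libraries from ctrl-EVs was 0.51, 0.12 and -0.22 in numbers 1, 2 and 3.

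**Figure D4:**
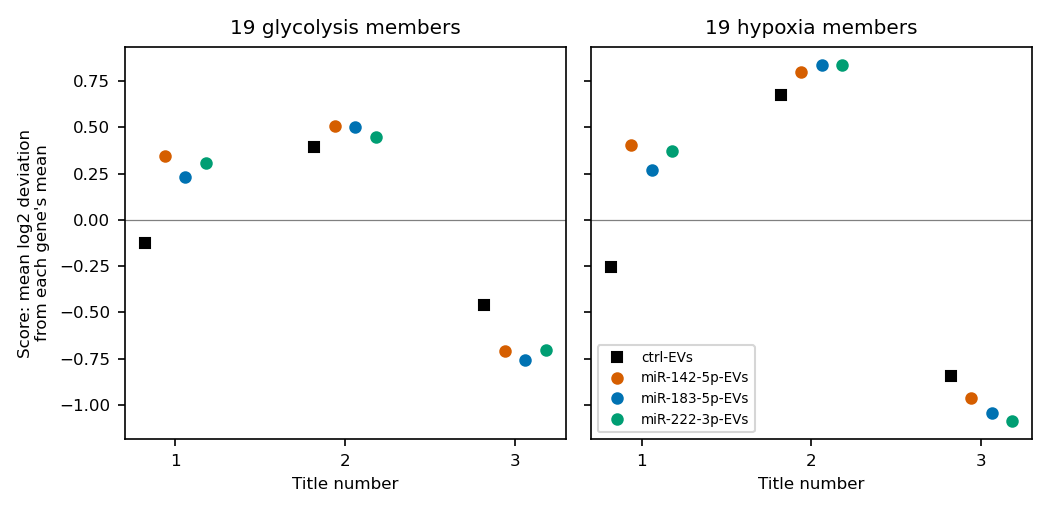
Score of the 19 glycolysis genes (left) and the 19 hypoxia genes (right) in each library (vertical axis, mean log2 deviation) by title number (horizontal axis) and EV group. The ctrl-EVs library (square) lies below the 3 miR-EV libraries in numbers 1 and 2 and above them in number 3.

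Within the numbers, the single ctrl-EVs library stood apart from the 3 miR-EV libraries, and in opposite directions. In number 1, all 3 miR-EV libraries lay above ctrl-EVs for 36 of 38 members and below it for 1 (Hif1a), where the shares of all tested genes were 32.5% and 32.1%. In number 2 they lay above for 24 members and below for 9, against 29.2% and 26.5% of tested genes. In number 3 they lay above for 4 members and below for 28, against 33.0% and 37.6%. The score of all members in miR-EVs was higher than in ctrl-EVs by 0.57, 0.44 and 0.53 in number 1 (the miR-EV groups in the order above) and by 0.12, 0.13 and 0.11 in number 2. In number 3 the same differences were -0.18, -0.25 and -0.24.

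The difference between number 1 and number 3 in this contrast was tested as an interaction in DESeq2, added after the values were seen, with the 3 miR-EV libraries of a number as replicates. It rests on 1 ctrl-EVs library per number, which was taken to vary like the miR-EV libraries. Those 3 libraries are different treatments, so the p-values measure only the spread among them, and as the contrast was chosen on the same values the calls are no independent support for it. Of 38 members, 28 were called with a higher miR-EV minus ctrl-EVs difference in number 1 than in number 3, beside 3.29% of tested genes. Only 1 member (Hif1a) was called with a lower difference, beside 3.5%. edgeR called 26. Among the members not called in DESeq2, only Pfkfb4 had a fitted value below 0, at -0.47. Egln3 and P4ha2 received no adjusted p because of their low counts. The median interaction over the members was 0.80 on the log2 scale and over all tested genes 0.01. The triosephosphate isomerase gene Tpi1 had the lowest p, named after its values were seen. It had normalized counts, in libraries 1, 2 and 3, of 16204, 18043 and 12709 in ctrl-EVs, 24599, 20536 and 9644 in miR-142-5p-EVs, 23729, 20277 and 8776 in miR-183-5p-EVs and 24269, 19477 and 9563 in miR-222-3p-EVs, which is an interaction of 1.03 ± 0.11 on the log2 scale (SE). Adm gave 1.47 ± 0.28, Ankrd37 1.998 ± 0.31, Bnip3 0.99 ± 0.18 and Slc2a1 0.96 ± 0.19. Hif1a went the other way, at -0.43 ± 0.13. Kdm3a, at 0.05 ± 0.18, Vegfa, at 0.20 ± 0.18, and 5 others (Hk1, Pfkm, Pfkfb4, Bnip3l and Mxi1) were not called.

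In the blocked comparison with ctrl-EVs the opposite differences of numbers 1 and 3 enter 1 mean. When the ctrl-EVs library 3 was left out of the blocked fit, 11 members were called higher in the miR-EV libraries together: Adm, Aldoa, Ankrd37, Ddit4, Eno1, Gpi1, Kdm3a, Ndrg1, Pdk3, Pfkfb3 and Tpi1. In that fit 0.913% of all 13906 tested genes were called higher. When the ctrl-EVs library 1 was left out, 3 were called, Bnip3, Egln1 and Ldha, each lower in miR-EVs, beside 0.129% of tested genes. Without ctrl-EVs library 2 the 1 called member was Pdk1, higher in miR-EVs, beside 0.597%. The direction of the called members against ctrl-EVs thus differed with the control library left out.

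**Figure D5:**
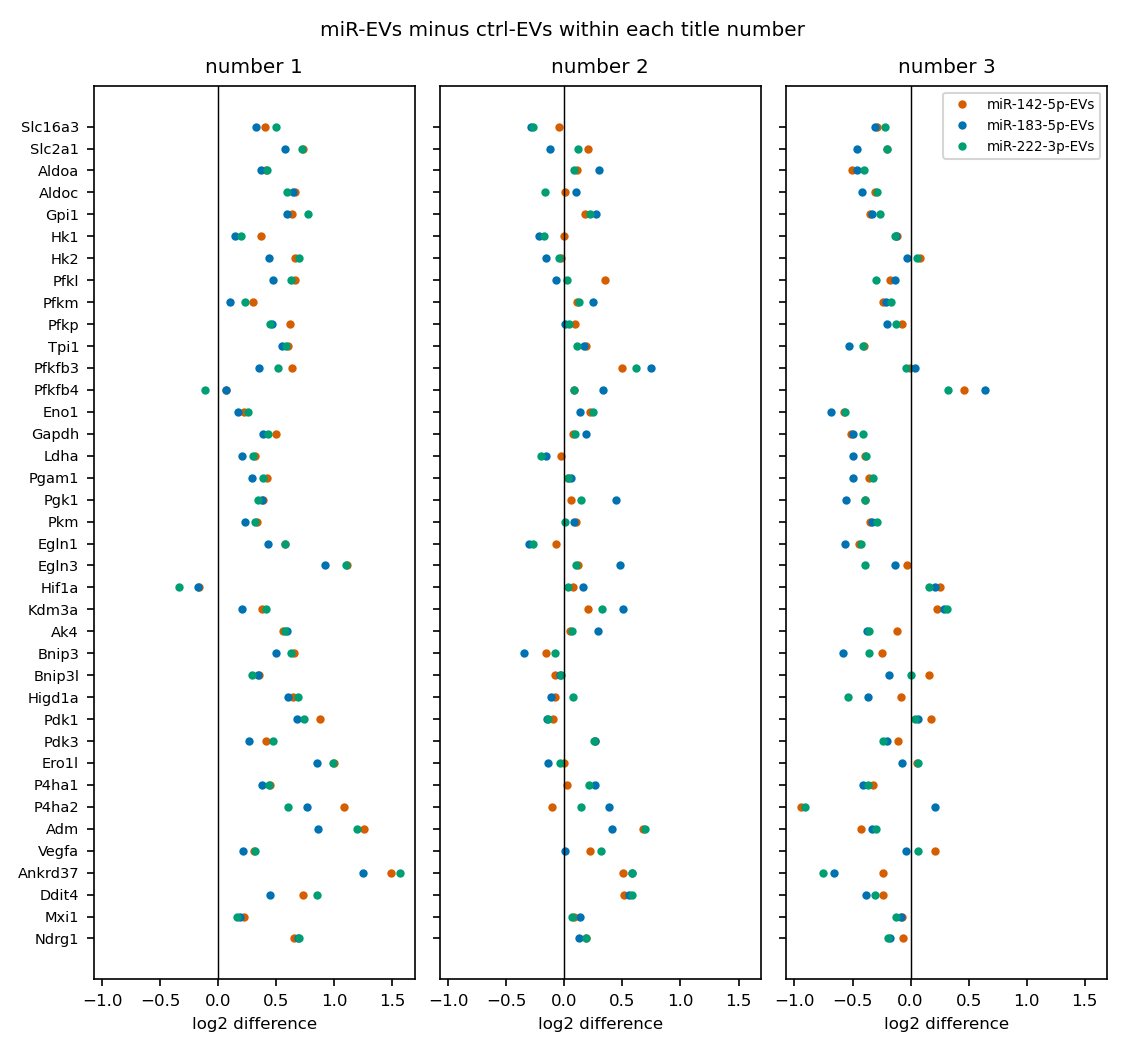
Difference of each miR-EV library from the ctrl-EVs library of the same title number (horizontal axis, log2 of normalized count + 1) for the 38 genes (vertical axis) in numbers 1, 2 and 3 (panels). Points lie right of 0 for nearly all genes in number 1 and left of 0 for most in number 3, with Hif1a on the opposite side in both.

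Other genes of the same pathways, from lists chosen with earlier results known, were called in both directions, and the examples were chosen after their values were seen. Of 32 further glycolysis genes 24 passed the count filter. Between number 2 and the others 8 of these were higher and 6 lower, with a median log2 fold change of 0.11. These shares, 33.3% and 25.0%, were near the 32.0% and 32.1% of all tested genes. Between number 1 and number 3 7 were higher and 1 lower, with a median of 0.11, which is 29.2% and 4.17% beside 12.9% and 10.5% of tested genes. Eno2, the second enolase, was higher by 2.71 ± 0.11 and 1.17 ± 0.13 in the 2 contrasts, and Slc2a3, the glucose importer GLUT3, by 0.91 ± 0.08 and 0.73 ± 0.09. The lysosomal transporter gene Slc2a6 was lower in number 2, at -1.32 ± 0.12. Of 35 further hypoxia genes 30 passed. In number 2, 21 were higher and 4 lower (70.0% and 13.3%), and in number 1 against number 3, 14 were higher and 1 lower (46.7% and 3.33%), with medians of 0.46 and 0.29. The shares of tested genes beside these are again 32.0% and 32.1%, then 12.9% and 10.5%. Bhlhe41, a circadian and hypoxia-induced repressor, was higher by 2.61 ± 0.11 and 0.74 ± 0.13. Vhl, which recognises hydroxylated HIF-1α, was higher in number 2 by 0.21 ± 0.09 and lower in number 1 than in number 3, at -0.32 ± 0.10. These values are log2 fold changes with SE from DESeq2.

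Promoters are shown for 4 members that were all higher in number 2 and in number 1 than in number 3, the first of 2 starts for Ldha. The HIF core motif was sought as ACGTG and as GCGTG on both strands, counting overlapping matches, in the 300 bases from 250 before to 50 after each RefSeq transcript start (GRCm38.p6). For 36 of the 38 members there were 57 such windows, several per gene in some cases, and for Bnip3l and Ndrg1 there was no entry under the symbols used. Some windows of the same gene overlap and hold the same matches, so the shares are of windows, not of separate promoters. ACGTG was present in 31 of 57 (54.4%), against 19.6% of all 32851 windows and 24.5% of 13128 windows of tested genes. GCGTG was present in 59.6%, against 32.4% and 48.0%. The member windows were also richer in CpG, with a median of 23 against 7 and 19. Capitals mark either motif on either strand, and a match is a run of letters, not a shown binding site. ACGTG or its complement CACGT appears 5 times in the Ldha window shown, with the palindrome CACGTG counted on both strands. It appears 0 times in the window of the second Ldha start. The Adm window also holds it 0 times, and holds GCGTG 2 times on the minus strand.
Ldha, chr7:46845554-46845853, plus strand: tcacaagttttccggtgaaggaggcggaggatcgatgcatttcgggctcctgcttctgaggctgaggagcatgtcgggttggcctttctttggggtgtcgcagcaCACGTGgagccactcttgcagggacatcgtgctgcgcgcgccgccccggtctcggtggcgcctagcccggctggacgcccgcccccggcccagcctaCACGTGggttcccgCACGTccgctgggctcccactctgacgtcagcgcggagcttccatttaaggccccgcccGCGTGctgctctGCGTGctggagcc
Bnip3, chr7:138909457-138909756, minus strand: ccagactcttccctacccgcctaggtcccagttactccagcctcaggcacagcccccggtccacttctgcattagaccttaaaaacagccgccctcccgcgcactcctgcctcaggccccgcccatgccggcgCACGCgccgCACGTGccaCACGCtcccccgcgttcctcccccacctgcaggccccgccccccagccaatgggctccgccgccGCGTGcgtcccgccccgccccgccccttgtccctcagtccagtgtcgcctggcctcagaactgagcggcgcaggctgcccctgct
Ankrd37, chr8:45999801-46000100, minus strand: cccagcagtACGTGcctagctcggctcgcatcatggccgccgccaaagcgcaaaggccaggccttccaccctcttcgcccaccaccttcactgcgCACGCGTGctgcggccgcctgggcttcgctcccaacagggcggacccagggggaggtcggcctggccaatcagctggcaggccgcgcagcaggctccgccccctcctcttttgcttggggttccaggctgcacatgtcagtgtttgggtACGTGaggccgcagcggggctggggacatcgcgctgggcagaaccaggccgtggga
Adm, chr7:110627407-110627706, plus strand: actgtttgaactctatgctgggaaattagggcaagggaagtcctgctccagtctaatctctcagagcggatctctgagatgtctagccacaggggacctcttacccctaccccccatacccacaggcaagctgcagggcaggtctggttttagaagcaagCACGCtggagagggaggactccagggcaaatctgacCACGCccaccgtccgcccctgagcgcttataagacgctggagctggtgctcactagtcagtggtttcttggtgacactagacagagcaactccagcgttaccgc

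Sites for the delivered miRNAs were then sought. The 7-base site complementary to the seed was sought in the 3′ UTR of each gene's most abundant transcript, which was annotated for all 38 members and 12181 tested genes. The miR-142-5p site was present in 3 members (Egln3, Pfkp and Pkm), a share of 7.89% against 14.8% of tested genes. The miR-183-5p site was present in 2 (Bnip3l and Pfkfb4), 5.26% against 9.73%, and the miR-222-3p site in 3 (Ddit4, Ero1l and Pgk1), 7.89% against 10.1%. One site per miRNA is shown, with the site in capitals in its surrounding 3′ UTR sequence.
Egln3, miR-142-5p site, from base 294 of 1643: cttcttattcgcACTTTATgtatgc
Bnip3l, miR-183-5p site, from base 1933 of 2488: gtttcatcgacaGTGCCATtgaact
Ddit4, miR-222-3p site, from base 286 of 867: ggctggatgtgtATGTAGCatgtac
None of the 8 genes was called in the EV group of its miRNA, and in each the fitted log2 fold change against ctrl-EVs was above 0. The values were 0.49 ± 0.69 for Egln3 and 0.08 ± 0.36 for Pkm in miR-142-5p-EVs. Bnip3l stood at 0.09 ± 0.35 in miR-183-5p-EVs and Ddit4 at 0.54 ± 0.69 in miR-222-3p-EVs. Under the replicate block the same genes gave 0.39 ± 0.25, 0.02 ± 0.12, 0.04 ± 0.11 and 0.36 ± 0.17.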

How the data were processed

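RNA of 12 RAW264.7 libraries, 3 in each of 4 EV groups, was measured by paired-end mRNA sequencing on a stranded kit. The authors quantified transcripts with Salmon, and the deposited values are estimated counts per transcript, not normalized between libraries, with effective lengths. The deposited TPM values are Salmon's abundances scaled for length and library size. The sources differ on the Ensembl release, and whether reads were assigned by strand is not given in the sources used here. Transcript identifiers were matched to GENCODE vM21 (GRCm38), which held 98.2% of the 118783 listed transcripts. Those not matched carried 0.605% to 0.707% of counts and were left out.

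Estimated counts were summed to genes and rounded to whole numbers, with Salmon's lengths entering as an offset. Genes that reached 10 counts in 3 or more libraries were tested in DESeq2 (1.42.0) in R (4.3.3), 13906 genes in all, and called at a Benjamini-Hochberg adjusted p under 0.05. The adjustment ran over the genes that DESeq2's own filter on low means and its outlier check kept, and genes without an adjusted p were not called. Groups came from the sample titles. EV groups were compared in a fit of all 12 libraries and title numbers in a fit with group and number. edgeR (4.0.16, quasi-likelihood), counts without the length offset, no count filter, a log2(TPM + 1) scale, the replicate block and leaving out each library in turn were the alternatives. The pseudocount of log scales was 1. The fits were also run on simulated counts with planted changes. These had a preset spread, constant transcript lengths and no other difference between title numbers. They therefore do not show how the fits behave with the spread of the deposited libraries.

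The title numbers paired the libraries. Over all tested genes, the deviations from group means of same-numbered libraries correlated at 0.61 on average (0.41 to 0.80, 18 pairs), and those of other libraries at -0.29 (36 pairs). Because each group was centred on its own 3 libraries, a positive first value makes the second negative, so the second adds no separate evidence. The same-group libraries differed by far more than sampling noise, with a chi-square of 26.9 to 174 per degree of freedom over 12 pairs, so each counted as a library of its own, which does not tell separate cultures from repeat preparations. 3 counts, the most that a count of 0 allows, correspond to 0.131 to 0.184 CPM, which covers counting error only.

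The members and all gene lists were chosen with earlier results of these data known. Given in full are 12 members fixed for their roles, members called against ctrl-EVs, and the 5 largest rises and falls between title numbers among called members whose normalized counts averaged 50 or more. Other members are given by counts and ranges or as examples of their role, chosen after their values were seen.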

Additional observations from a re-analysis of the deposited data

Results flagged for a closer look

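In 57 sets of 4 libraries of one title number, 4 held a library set apart from the other three by Dixon's test, where chance sets apart about 1 in 20 groups. Each was the ctrl-EVs library and each was low: Ddit4 in number 2 at 3105 normalized counts, Ankrd37 in number 2 at 599, Ndrg1 in number 1 at 5489 and Ak4 in number 1 at 1437. A count of 4 in 57 is near that rate. The 4 libraries of a set are different treatments, and the sets share the same ctrl-EVs libraries, so they are not independent. No conclusion is drawn from these flags.

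The difference between miR-EVs and ctrl-EVs went in opposite directions in 2 title numbers. The member score was higher in miR-EVs by a mean of 0.51 in number 1, in 3 of 3 libraries, and the mean difference was -0.22 in number 3, with 3 of 3 libraries lower. This difference of scores was not tested. By gene, the interaction was called for 29 of the 38 members (DESeq2), 28 of them higher in number 1 and 1 lower, beside 3.29% and 3.5% of all tested genes. It rests on 1 ctrl-EVs library per number and on the spread among 3 different treatments, and was chosen on the same values, so it is no independent support.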

How the results depend on the processing

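No member was called against ctrl-EVs with edgeR, without the count filter, without the length offset or with any 1 library left out (0 to 0 in each comparison). The replicate block called 1 member in all miR-EVs, and 2 without the length offset; it changed no other call of a comparison. In the blocked fit, leaving out 1 library gave 0 to 11 calls in all miR-EVs, 0 to 7 in miR-142-5p-EVs, 0 to 5 in miR-183-5p-EVs and 0 to 6 in miR-222-3p-EVs, the highest each time without ctrl-EVs 3. Without the block, leaving out 1 library gave a member score against ctrl-EVs of -0.14 to 0.46, -0.13 to 0.62, -0.22 to 0.56 and -0.17 to 0.60 in the same order.

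Between title numbers, leaving out 1 library gave 33 to 36 called members for number 2 against numbers 1 and 3 (score 0.87 to 0.97), 35 to 37 for number 1 against number 3 (score 0.96 to 1.14), 20 to 24 for number 2 against number 1 and 27 to 30 for the interaction. On log2(TPM + 1) the score of number 2 against numbers 1 and 3 was 0.69; the cause was not tested.

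Single genes turned direction against ctrl-EVs only when a library was left out of the fit without the block, which leaves unequal title numbers in the 2 groups. Kdm3a ranged from -0.26 to 0.82 (miR-142-5p-EVs), -0.33 to 0.96 (miR-183-5p-EVs) and -0.20 to 0.91 (miR-222-3p-EVs). Pfkfb3 ranged from -0.24 to 1.12, -0.42 to 1.20 and -0.34 to 1.15. Vegfa ranged from -0.40 to 0.90, -0.57 to 0.70 and -0.47 to 0.92, and from -0.066 to 0.84 in all miR-EVs. With the replicate block the direction of these genes was the same whichever library was left out, at 0.21 to 0.43 for Kdm3a, 0.23 to 0.57 for Pfkfb3 and 0.0061 to 0.29 for Vegfa over the 4 comparisons. Of 776 alternatives for 47 pairs of a gene and a comparison, 744 kept direction and side of the threshold and 19 reversed.

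Each EV group has 3 libraries, and without the block the differences between title numbers enter the error of each comparison with ctrl-EVs. What the numbers stand for is not stated, and culture, vesicle preparation and sequencing cannot be told apart.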
